A study of Mus musculus with 12 samples.

Results

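The genes described here are 40 genes of the cell division cycle and of DNA replication, taken by symbol from the 47729 genes of the study's count table. All 40 were found, and their values were read in all 12 libraries. They were grouped by role into 7 genes for cyclins, the kinase Cdk1 and the transcription factor E2f1, 10 for replication licensing and the replicative helicase, 5 for nucleotide supply and the sliding clamp, 8 for mitotic kinases, the spindle checkpoint and its ubiquitin ligase, and 10 for the centromere, the spindle and chromosome structure. The libraries are polyA-selected RNA from adherent peritoneal macrophages of C57BL/6 mice, in 4 groups of 3. In the IL4c groups the mice had received IL-4 (5 ug) complexed with an antibody (25 ug) in 2 injections, the last 2 days before collection, and the cells were then kept for 24 h with 20 ug/ml of the matricellular protein SPARC (IL4c SPARC) or without it (IL4c untreated). In the TG groups the mice had received 3% thioglycollate, a sterile irritant, 4 days before collection, and the cells were likewise kept with SPARC (TG SPARC) or without it (TG untreated). No control protein was named for the untreated cultures, and cells were selected only by attachment for 2 h. The libraries of each group carry the numbers 1, 2 and 3, and below the 3 values of a group are given in that order.

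Cells that leave quiescence pass from G1 into S phase when cyclin D and cyclin E kinases free E2F factors from the retinoblastoma proteins, after which the genes of licensing, nucleotide synthesis and replication are transcribed. The genes of mitosis are transcribed later, in G2 and M phase, through the DREAM and MYB-FOXM1 complexes that act on CHR elements of their promoters. CCAAT elements of these promoters are bound by the factor NF-Y. Resident peritoneal macrophages can divide in the cavity, and interleukin 4 is known as a signal that drives such local proliferation, whereas thioglycollate recruits monocytes from blood that divide less.

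The promoter sequences of these genes are shown because genes of replication and genes of mitosis, which are described by role below, are known for different promoter elements. RefSeq windows (GRCm38.p6) of 250 bases before to 50 bases after each start were available for 34 of the 40 genes, in 36 windows. They were searched on both strands for 4 E2F spellings (TTTCCCGC, TTTCGCGC, TTTGCCGC and TTTGGCGC), for the CHR spellings TTTGAA and TTTAAA, and for CCAAT, each on its own and with overlaps between motifs allowed. An E2F spelling stood in 7 of the 36 windows (19.4%), against 2.26% of 32851 windows of all genes, and 6 of the 7 belonged to licensing and helicase genes. A CHR spelling together with CCAAT stood in 20 of the 36 windows (55.6%), against 10.7% of all windows. CHR spellings were found in 8 of the 9 windows of centromere and spindle genes and in 6 of the 7 windows of mitotic kinase and checkpoint genes. They stood in 3 of the 10 licensing windows, against 27.6% of all windows. CCAAT did not separate these roles. It stood in 8 of 9, 6 of 7 and 8 of 10 windows of the same 3 roles, against 37.4% of all windows. Such a match is a stretch of letters and not a measured binding site. The first sequences are 3 licensing genes with an E2F spelling in capitals, Mcm6 (chr1:128359656-128359955, minus strand), Mcm3 (chr1:20820263-20820562, minus strand) and Cdt1 (chr8:122567765-122568064, plus strand), whose levels with SPARC ran differently in different numbered pairs.
Mcm6: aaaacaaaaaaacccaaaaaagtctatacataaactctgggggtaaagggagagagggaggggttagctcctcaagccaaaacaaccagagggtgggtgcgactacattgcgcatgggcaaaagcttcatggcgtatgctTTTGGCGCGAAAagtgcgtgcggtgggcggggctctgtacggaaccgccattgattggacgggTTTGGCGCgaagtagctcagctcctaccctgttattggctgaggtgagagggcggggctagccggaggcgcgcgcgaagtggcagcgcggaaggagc
Mcm3: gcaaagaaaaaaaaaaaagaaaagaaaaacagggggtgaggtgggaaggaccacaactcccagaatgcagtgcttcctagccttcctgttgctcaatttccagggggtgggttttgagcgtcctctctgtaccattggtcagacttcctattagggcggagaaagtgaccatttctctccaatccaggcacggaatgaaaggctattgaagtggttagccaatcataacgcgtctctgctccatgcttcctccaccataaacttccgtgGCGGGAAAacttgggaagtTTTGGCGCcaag
Cdt1: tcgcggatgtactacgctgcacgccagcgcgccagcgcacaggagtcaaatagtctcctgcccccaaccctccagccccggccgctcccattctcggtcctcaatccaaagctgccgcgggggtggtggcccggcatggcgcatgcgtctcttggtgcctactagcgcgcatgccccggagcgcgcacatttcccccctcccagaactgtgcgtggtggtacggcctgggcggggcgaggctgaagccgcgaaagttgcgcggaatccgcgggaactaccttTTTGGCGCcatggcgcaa
The next are 4 mitotic genes with CHR spellings in capitals, Cenpa (chr5:30666636-30666935, plus strand), Ube2c (chr2:164769679-164769978, plus strand), Top2a (chr11:99024140-99024439, minus strand) and Bub1b (chr2:118597961-118598260, plus strand). They are shown because windows with the same short element belonged to genes that were lower with SPARC (Cenpa, Ube2c), to a gene that was higher (Bub1b) and to a gene that did not pass with or without the block over all libraries (Top2a).
Cenpa: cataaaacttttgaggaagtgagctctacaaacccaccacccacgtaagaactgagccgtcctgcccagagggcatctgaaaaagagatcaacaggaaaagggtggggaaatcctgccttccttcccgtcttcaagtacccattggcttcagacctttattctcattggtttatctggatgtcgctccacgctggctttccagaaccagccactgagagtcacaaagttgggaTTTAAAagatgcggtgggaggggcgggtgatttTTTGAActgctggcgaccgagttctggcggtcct
Ube2c: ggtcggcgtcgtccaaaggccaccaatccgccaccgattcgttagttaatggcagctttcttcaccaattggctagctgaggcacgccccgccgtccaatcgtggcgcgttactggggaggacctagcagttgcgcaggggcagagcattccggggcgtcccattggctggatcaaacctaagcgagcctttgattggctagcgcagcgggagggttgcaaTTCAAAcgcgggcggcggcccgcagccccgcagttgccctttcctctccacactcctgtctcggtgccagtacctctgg
Top2a: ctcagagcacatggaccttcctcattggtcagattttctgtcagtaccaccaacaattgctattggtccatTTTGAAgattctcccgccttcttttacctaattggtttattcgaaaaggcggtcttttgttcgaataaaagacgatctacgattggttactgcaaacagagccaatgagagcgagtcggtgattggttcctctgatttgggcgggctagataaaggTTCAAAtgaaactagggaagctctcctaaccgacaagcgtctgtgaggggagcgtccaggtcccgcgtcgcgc
Bub1b: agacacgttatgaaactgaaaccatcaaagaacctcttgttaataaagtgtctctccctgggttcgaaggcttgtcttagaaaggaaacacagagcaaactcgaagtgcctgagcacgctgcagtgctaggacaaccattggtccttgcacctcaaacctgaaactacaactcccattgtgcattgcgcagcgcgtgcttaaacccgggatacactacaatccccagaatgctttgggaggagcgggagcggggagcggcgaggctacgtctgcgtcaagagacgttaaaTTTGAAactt

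The levels of the 40 genes depended strongly on the library number. The share of all genes that were highest in a given number was not counted. Whether this dependence is particular to the 40 genes was therefore not tested. In IL4c cultures number 3 was the highest library for 40 of 40 genes among the SPARC libraries and again for 40 of 40 among the untreated libraries. The median ratio of number 3 to the mean of numbers 1 and 2 was 4.88 with SPARC, running from 1.31 for E2f1 to 56.8 for Cenpf, and 3.57 without SPARC, running from 1.10 for Mcm4 to 9.74 for Ccnb1. In TG cultures number 1 was the highest for 39 of 40 genes with SPARC, with a median ratio of 2.28 and with Pcna as the exception, and for 35 of 40 genes without SPARC, with a median ratio of 2.26. Mki67, which encodes the proliferation antigen Ki-67, had 51.7, 51.2 and 113 CPM in IL4c SPARC, against 59.3, 63.9 and 111 CPM in IL4c untreated. It had 114, 18.2 and 22.4 CPM in TG SPARC, against 77.7, 14.6 and 23.03 CPM in TG untreated. Both number 3 libraries of IL4c and both number 1 libraries of TG were thus the 4 highest, and numbers 2 and 3 of TG lay below every other library. For Top2a, the topoisomerase that untangles replicated chromosomes, the values were 10.9, 13.97 and 64.6 CPM in IL4c SPARC, against 13.3, 15.9 and 68.2 CPM in IL4c untreated. They were 33.7, 9.13 and 12.8 CPM in TG SPARC, against 36.8, 9.57 and 12.8 CPM in TG untreated, so the same 4 libraries stood above the other 8.

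**Figure D1:**
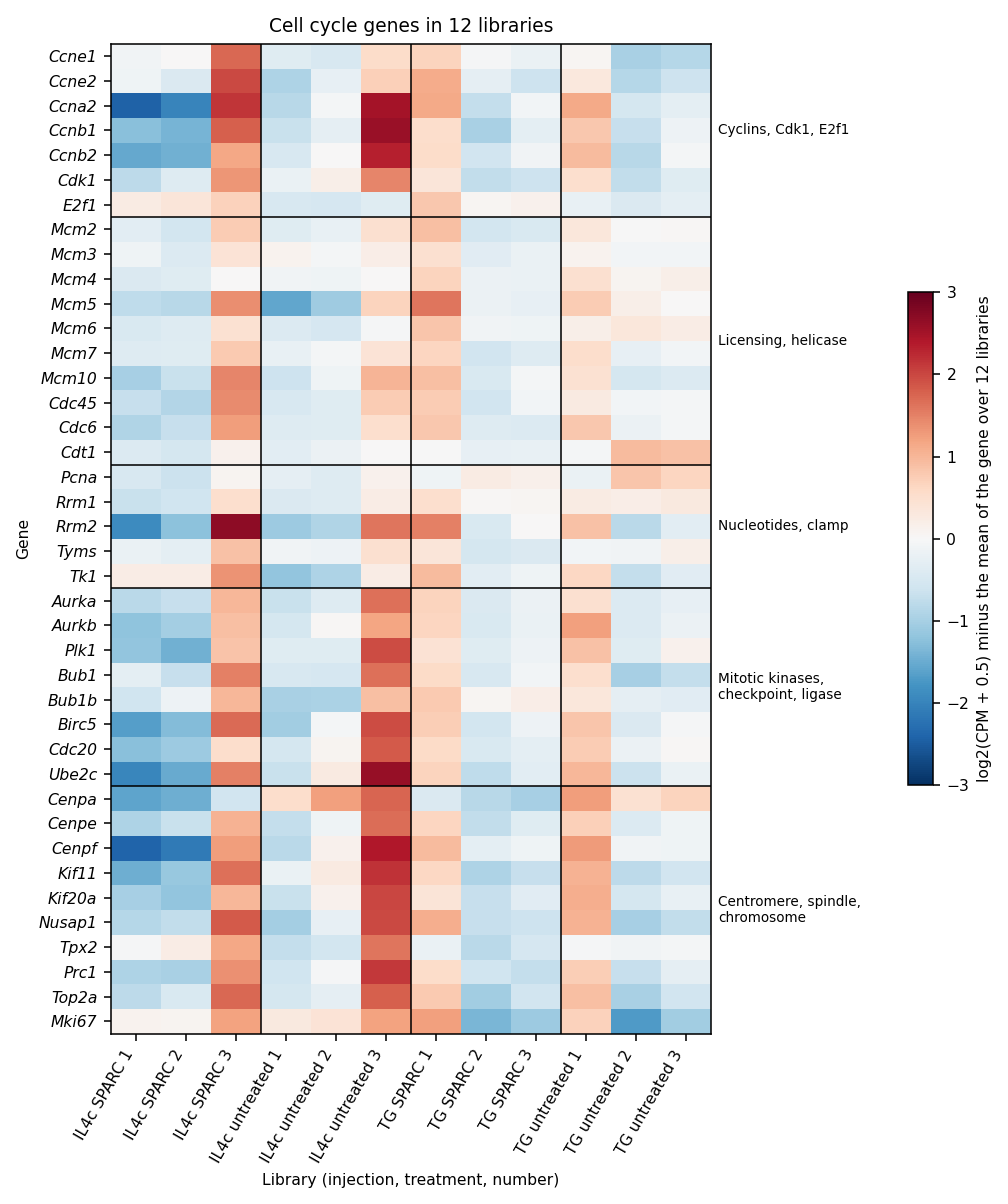
Heat map of the 40 genes (rows, grouped by role) in the 12 libraries (columns), coloured by log2(CPM + 0.5) minus the mean of the gene over all libraries. Both number 3 libraries of IL4c are red for most genes, and E2f1 and Cenpa differ by treatment in each pair.

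On the length-corrected FPKM scale, Pcna, the sliding clamp of DNA polymerases, had the highest mean level over the 12 libraries (89.0 FPKM). It was followed by the helicase subunit Mcm3 (14.4 FPKM), the centromeric histone Cenpa (11.3 FPKM), Mcm6 (10.3 FPKM) and E2f1 (9.24 FPKM). The lowest mean levels were those of Ccne2 (0.966 FPKM), the origin licensing factor Cdc6 (0.608 FPKM) and the kinetochore protein Cenpf (0.475 FPKM). The spread over the libraries differed as much: Pcna stayed between 74.3 and 208 CPM, while Cenpf spanned 2 to 562 counts among the IL4c libraries alone.

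The libraries held 31501941 to 42288785 estimated counts, and 3 counts, taken as the limit of detection, equalled 0.0707 CPM or more. Only Ube2c, in 1 library, and Cenpf, in 2 libraries, had fewer than 10 counts anywhere, and all 40 genes passed the filter on low counts. Macrophage markers were high throughout, with a summed level of 14498 to 20550 CPM in IL4c SPARC, 22740 to 30609 CPM in IL4c untreated, 31499 to 33983 CPM in TG SPARC and 27381 to 36491 CPM in TG untreated, and 10 of 10 were detected. B cell markers, 13 of 13 detected, summed to 83.2 to 187 CPM in IL4c SPARC, 164 to 419.9 CPM in IL4c untreated, 179.8 to 1971 CPM in TG SPARC and 279 to 2532 CPM in TG untreated. Both TG maxima were number 1, so that the TG libraries with the highest cell cycle levels were also those with the highest B cell signal. In IL4c the order was the other way, since number 3 had the highest cell cycle levels and the lowest B cell sum in each treatment. T cell markers were likewise highest in TG number 1 (45.6 CPM with SPARC and 40.7 CPM without), against at most 9.05 CPM in all IL4c libraries. The 11 neutrophil markers, 4 to 6 of them detected in a library, summed to 140.3 to 213 CPM in IL4c SPARC, 130.1 to 261 CPM in IL4c untreated, 169.5 to 206 CPM in TG SPARC and 173 to 319 CPM in TG untreated, while the defining S100a9 and Ly6g were at or near 0, at no more than 0.0914 CPM. With SPARC the B cell sum was 0.446, 0.484 and 0.508 times that of the untreated library in the 3 IL4c pairs and 0.778, 0.644 and 0.759 times in the 3 TG pairs. Dendritic cell markers summed to 2.80 to 3.47 CPM in IL4c SPARC, against 10.6 to 32.9 CPM in IL4c untreated. The plasma cell sum with SPARC was 1.92, 3.37 and 2.00 times the untreated one in the IL4c pairs, and the eosinophil sum was 0.366, 0.278 and 0.319 times. In the TG pairs the eosinophil sum was likewise lower, at 0.423, 0.388 and 0.371 times. The dendritic cell sum there was 1.09, 1.12 and 1.11 times and the plasma cell sum 0.904, 0.919 and 1.17 times the untreated one. The mesothelial and fibroblast list summed to 60.8 to 112 CPM in IL4c SPARC, against 5.99 to 15.0 CPM in IL4c untreated. With SPARC nearly all of that sum was Dcn (58.9, 108 and 97.1 CPM), and the mesothelial gene Msln was at or near 0. In the TG pairs the sum of this list with SPARC was 4.87, 1.34 and 1.79 times the untreated one. The part of these cells in the results below was not tested, and in bulk RNA fewer dividing cells and less RNA per dividing cell cannot be told apart.

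**Figure D2:**
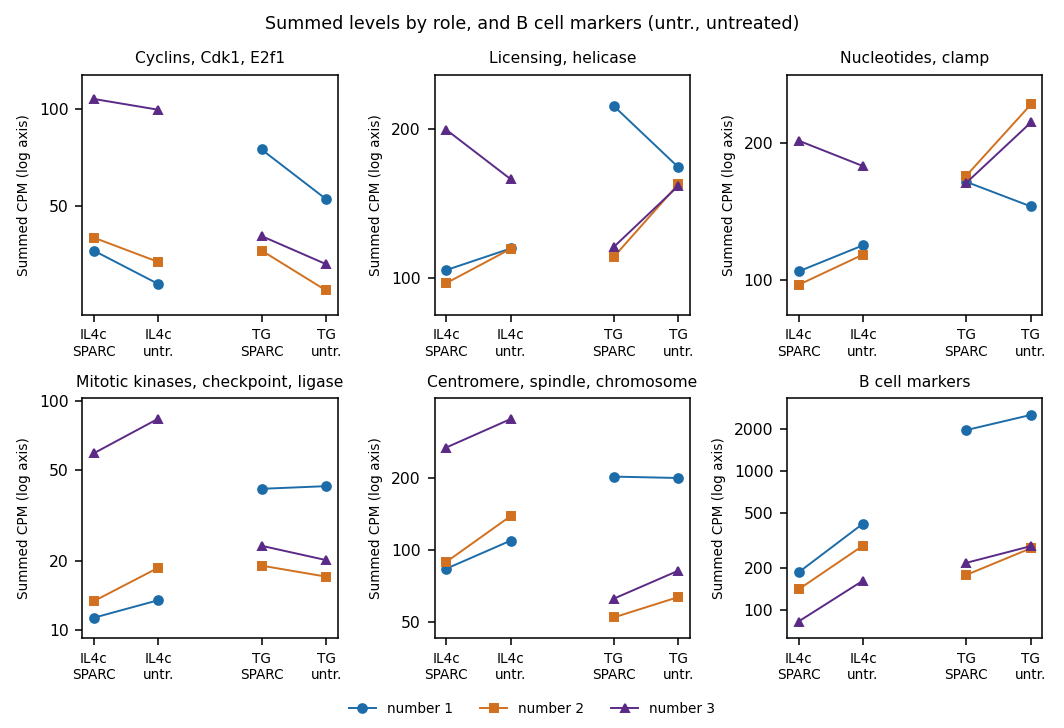
Summed CPM (log axis) of the genes of each role and of the B cell markers in each library, with lines joining the SPARC and untreated libraries of the same number. The TG number 1 libraries, at 1971 CPM with SPARC and 2532 CPM without, stand above all others in the B cell panel, and IL4c number 3 stands above the other IL4c numbers in the 5 cell cycle panels.

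The question of the first comparison was how SPARC changed these genes in IL4c macrophages. E2f1 rose and Cenpa fell in a fit that ignored the numbers, and in a fit with the number as a block (libraries of the same injection and number treated as a pair) 4 genes rose and 16 fell. The genes that rose were E2f1, Ccne1, Tk1 and Bub1b. Among those that fell were the mitotic cyclins Ccnb1 and Ccnb2, the kinase Plk1 and the ubiquitin ligase parts Cdc20 and Ube2c. By edgeR's quasi-likelihood test without the block, 2 of the 40 genes passed an adjusted p of 0.05, against 27.8% of all 15232 genes tested (15.1% higher and 12.7% lower). With the block, 20 of 40 passed, against 45.2% of all genes; the 4 higher genes compare with 22.8% of all genes called higher and the 16 lower genes with 22.4% called lower. The median log2 fold change of the 40 genes was -0.18 with the block, against -0.0041 over all genes. Within pairs, 18 of 40 genes were lower with SPARC in all 3 pairs, against 36.3% of all genes, and 5 were higher in all 3, against 36.0%. The labels do not say that the numbers are separate animals or that equal numbers share cells. The pairing of the block fit is therefore an assumption, and p-values here and below measure the spread between these libraries. Without both number 3 libraries, the fit without the block called 4 genes (against 17.1% of all genes), E2f1 and Tpx2 higher and Cenpa and Cenpf lower, and without IL4c pair 2 the block fit called 11 of 40 (against 26.6% of all genes). With the block, 10 of the 20 genes passed with any of the 6 pairs left out (E2f1, Tk1, Ccnb1, Ccnb2, Plk1, Cdc20, Ube2c, Cenpa, Cenpf and Kif11), and the other 10 lost the call without at least 1 pair.

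**Figure D3:**
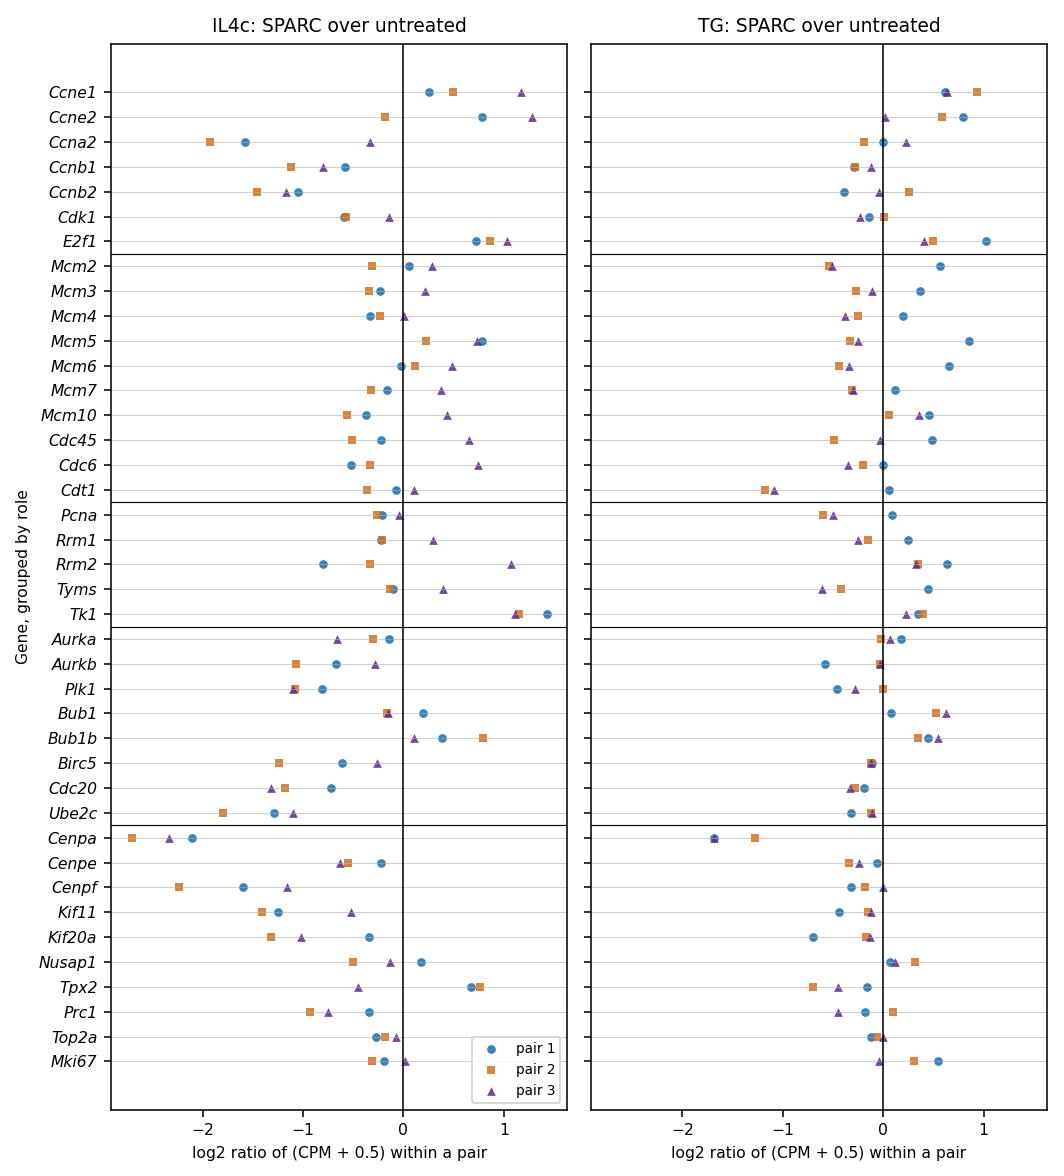
Log2 ratios of CPM + 0.5, SPARC over untreated, within each numbered pair for IL4c (left) and TG (right), with genes in rows by role and a line at no difference. In IL4c 18 genes lie left of the line in all 3 pairs and 5 lie right of it in all 3.

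E2f1, the activating E2F factor of the G1 to S transition (chr2:154559407-154569892, minus strand, GRCm38, protein coding), had 27.8, 30.3 and 37.97 CPM in IL4c SPARC, against 16.6, 16.4 and 18.3 CPM in IL4c untreated. The groups did not overlap, as for 25.5% of all genes in that direction, and the level with SPARC was 1.68, 1.85 and 2.08 times the untreated level in pairs 1, 2 and 3. E2f1 rose without the block (log2 fold change 0.91, SE 0.19, adjusted p = 0.00746 by edgeR) and with it (log2 fold change 0.90, SE 0.13, adjusted p = 0.00136). Ccne1, the cyclin that partners Cdk2 at S phase entry, had 2.87, 3.16 and 11.5 CPM in IL4c SPARC, against 2.34, 2.09 and 4.82 CPM in IL4c untreated. It was higher with SPARC in each pair although the groups overlapped, and it rose only with the block (log2 fold change 0.75, SE 0.21, adjusted p = 0.0212 by edgeR, against adjusted p = 0.294 without the block). The related Ccne2 had 1.42, 1.06 and 7.90 CPM in IL4c SPARC, against 0.617, 1.27 and 2.96 CPM in IL4c untreated, with pair 2 going the other way, and did not pass (adjusted p = 0.0864 with the block in edgeR). The cyclins of G2 and mitosis were lower. Ccnb1 had 1.16, 1.01 and 13.1 CPM in IL4c SPARC, against 1.98, 2.78 and 23.2 CPM in IL4c untreated, and Ccnb2 had 0.290, 0.345 and 4.63 CPM in IL4c SPARC, against 1.14, 1.82 and 11.02 CPM in IL4c untreated. Each was lower with SPARC in all 3 pairs while numbers 1 and 2 of either treatment lay far below number 3, so the groups overlapped. Both fell with the block, Ccnb1 with log2 fold change -0.99, SE 0.16, adjusted p = 0.00219 and Ccnb2 with log2 fold change -1.71, SE 0.27, adjusted p = 0.00215 by edgeR. Ccna2, the cyclin of S phase and early mitosis, had 0.396, 0.716 and 20.9 CPM in IL4c SPARC, against 2.17, 4.12 and 26.4 CPM in IL4c untreated, a deficit that was large in numbers 1 and 2 and small in number 3 (block adjusted p = 0.0387 by edgeR). Cdk1, the kinase these cyclins activate, fell by less, with ratios of 0.620, 0.640 and 0.902 in the 3 pairs (block log2 fold change -0.47, edgeR adjusted p = 0.0318).

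Among the 10 genes of licensing and the helicase none passed in IL4c with or without the block. Without the block 0 were called by edgeR, 0 by DESeq2 and 0 by limma-voom, and none had an unadjusted edgeR p under 0.05. With the block 1 had an unadjusted edgeR p under 0.05. Their direction differed by pair. In pair 3 all 10 were higher with SPARC, with a median log2 ratio of 0.40. By contrast 2 of 10 were higher in pair 1 (median -0.19) and 2 of 10 in pair 2 (median -0.33). Over all genes the medians were 0.0036, -0.0135 and 0 in pairs 1, 2 and 3. The share of all genes that split this way was not counted. Mcm6 had 20.6, 21.5 and 38.6 CPM in IL4c SPARC, against 21.00, 19.9 and 27.5 CPM in IL4c untreated, and Mcm3 had 29.5, 24.1 and 42.5 CPM in IL4c SPARC, against 34.8, 30.6 and 36.6 CPM in IL4c untreated. The groups overlapped for each of these helicase subunits, and number 3 with SPARC was the highest of the 6 IL4c libraries. The helicase subunit Mcm7 had pair ratios of 0.888, 0.791 and 1.31, the replication initiation factor Mcm10 of 0.681, 0.595 and 1.39 and the helicase cofactor Cdc45 of 0.813, 0.612 and 1.64, each below 1 in pairs 1 and 2 and above 1 in pair 3. Mcm5 was the only licensing gene higher in all 3 pairs, with 3.72, 3.55 and 18.5 CPM in IL4c SPARC, against 1.95, 2.97 and 10.97 CPM in IL4c untreated. Its edgeR adjusted p was 0.0872 with the block, and 0.00396 when TG pair 1 was left out. Cdt1, which loads the helicase at origins (chr8:122568015-122573554, plus strand, protein coding), stayed between 10.5 and 16.9 CPM in the 6 IL4c libraries.

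Of the 5 genes of nucleotide supply and the clamp, Tk1 alone passed, with the block. Tk1, the cytosolic thymidine kinase of the salvage pathway (chr11:117815526-117826092, minus strand, protein coding), had 3.11, 3.11 and 7.33 CPM in IL4c SPARC, against 0.844, 1.12 and 3.12 CPM in IL4c untreated. Numbers 1 and 2 with SPARC were level with number 3 without it, so the groups just overlapped, but within pairs the ratios were 3.69, 2.78 and 2.35. Tk1 rose with the block (log2 fold change 1.49, SE 0.17, adjusted p = 0.000518 by edgeR) and did not pass without it (adjusted p = 0.135). The ribonucleotide reductase subunits Rrm1 and Rrm2 and the thymidylate synthase Tyms were lower with SPARC in pairs 1 and 2 and higher in pair 3. Rrm2 was the clearest case, with 0.791, 1.53 and 29.99 CPM in IL4c SPARC, against 1.75, 2.06 and 14.01 CPM in IL4c untreated. Pcna, at 82.4, 74.3 and 123 CPM in IL4c SPARC, against 95.6, 89.1 and 127 CPM in IL4c untreated, was slightly lower in each pair and did not pass (edgeR adjusted p = 0.307 with the block).

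Of the 8 genes of mitotic kinases, checkpoint and ubiquitin ligase, 6 fell with the block, 1 rose and 1 did not pass. Ube2c, the ubiquitin-conjugating enzyme of the anaphase-promoting complex (chr2:164769898-164778822, plus strand, protein coding), had 0.185, 0.419 and 7.00 CPM in IL4c SPARC, against 1.17, 2.69 and 15.6 CPM in IL4c untreated. Its ratios were 0.158, 0.156 and 0.449, and the lowest library held 7 counts (log2 fold change -1.86, SE 0.31, adjusted p = 0.00263 with the block in edgeR). Cdc20, the activator of the same complex (chr4:118432901-118437352, minus strand, protein coding), had 0.475, 0.592 and 2.83 CPM in IL4c SPARC, against 1.10, 1.97 and 7.80 CPM in IL4c untreated, and fell with the block (log2 fold change -1.48, SE 0.17, adjusted p = 0.000572 by edgeR). Plk1, the polo-like kinase of mitotic entry, had 0.580, 0.410 and 3.93 CPM in IL4c SPARC, against 1.39, 1.42 and 8.97 CPM in IL4c untreated, and fell by a similar amount (log2 fold change -1.36, SE 0.19, adjusted p = 0.00134). In these 3 genes each untreated library lay above the SPARC library of its own number, and the number 3 SPARC library lay above the untreated numbers 1 and 2. The Aurora kinases Aurka and Aurkb and the chromosomal passenger Birc5 fell by less, with block log2 fold changes of -0.49, -0.79 and -0.94 and edgeR adjusted p of 0.0467, 0.0266 and 0.0343. The checkpoint kinase Bub1b ran the other way. It had 5.33, 7.33 and 17.00 CPM in IL4c SPARC, against 3.96, 4.02 and 15.8 CPM in IL4c untreated, with ratios of 1.35, 1.82 and 1.08 and a block edgeR adjusted p of 0.0412. Its partner Bub1 had 2.45, 1.75 and 9.77 CPM in IL4c SPARC, against 2.08, 2.03 and 10.9 CPM in IL4c untreated, with no common direction (edgeR adjusted p = 0.824).

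Cenpa, the histone H3 variant that marks centromeres (chr5:30666777-30674830, plus strand, protein coding), was the only gene of the 10 for centromere, spindle and chromosome structure whose groups did not overlap. It had 3.72, 4.07 and 7.95 CPM in IL4c SPARC, against 17.7, 29.3 and 42.3 CPM in IL4c untreated. Every SPARC library lay below every untreated one, as for 24.8% of all genes. In the pairs the level with SPARC was 0.210, 0.139 and 0.188 times the untreated level. Cenpa fell without the block (log2 fold change -2.50, SE 0.40, adjusted p = 0.00165 by edgeR) and with it (log2 fold change -2.50, SE 0.14, adjusted p = 4.31e-05). Cenpf had 2, 7 and 249 counts in the IL4c SPARC libraries, against 36, 88 and 562 counts in the IL4c untreated libraries, and it fell with the block (edgeR adjusted p = 0.0113). The spindle kinesin Kif11 had 1.24, 1.68 and 14.6 CPM in IL4c SPARC, against 3.63, 5.30 and 21.1 CPM in IL4c untreated, and Kif20a, a kinesin of cytokinesis, had 1.58, 1.33 and 7.79 CPM in IL4c SPARC, against 2.14, 4.06 and 16.3 CPM in IL4c untreated. Both fell with the block, with log2 fold changes of -1.17 and -1.05 and edgeR adjusted p of 0.00527 and 0.00798. The kinetochore motor Cenpe and the midzone protein Prc1 fell with the block as well (-0.53 and -0.76 on the log2 scale, edgeR adjusted p = 0.0110 and 0.00783). The other 4 genes did not pass. Top2a and Mki67 had block log2 fold changes of -0.18 and -0.17, with edgeR adjusted p of 0.0674 and 0.271. Their pair ratios were 0.821, 0.879 and 0.947 for Top2a and 0.872, 0.802 and 1.01 for Mki67, all near 1 although both genes were far higher in the number 3 libraries. Nusap1, a microtubule-binding protein of the spindle, had pair ratios of 1.19, 0.633 and 0.907 (block edgeR adjusted p = 0.408). Tpx2, a spindle assembly factor, had 7.73, 9.35 and 18.4 CPM in IL4c SPARC, against 4.64, 5.30 and 25.3 CPM in IL4c untreated, higher with SPARC in pairs 1 and 2 and lower in pair 3.

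**Figure D4:**
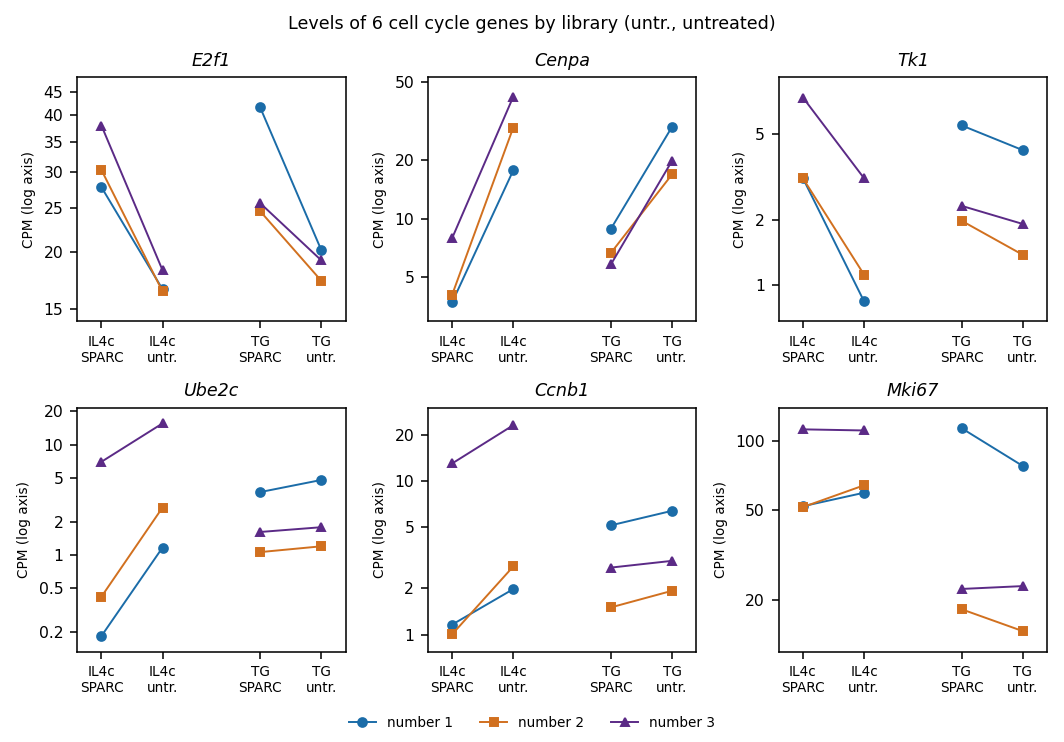
CPM (log axis) of E2f1, Cenpa, Tk1, Ube2c, Ccnb1 and Mki67 in each library, with lines joining the SPARC and untreated libraries of the same number. Every line of E2f1 and Tk1 is higher at its SPARC end and every line of Cenpa, Ube2c and Ccnb1 is lower there, while the lines of Mki67 differ in direction.

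SPARC in TG macrophages was compared in the same way. E2f1 rose and Cenpa fell here too, and few other genes passed. By edgeR without the block 2 of 40 genes passed, against 11.3% of all genes (6.73% higher and 4.52% lower). With the block 4 of 40 passed, against 27.3% of all genes (14.3% higher and 13.1% lower): Ccne1, E2f1 and Bub1b were higher and Cenpa was lower. Within pairs, 9 genes were higher with SPARC in all 3 pairs (4 when ratios were taken on FPKM + 0.1), against 27.5% of all genes, and 14 were lower in all 3, against 30.7%. The median log2 fold change of the 40 genes was -0.14 with the block, against -0.03 over all genes.

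E2f1 had 41.6, 24.6 and 25.6 CPM in TG SPARC, against 20.2, 17.3 and 19.2 CPM in TG untreated. The groups did not overlap, as for 16.2% of all genes in that direction. The ratios were 2.06, 1.42 and 1.34, and the gene rose in each fit (log2 fold change 0.70, SE 0.19, adjusted p = 0.0468 without the block and adjusted p = 0.00919 with it, by edgeR). Cenpa had 8.87, 6.66 and 5.82 CPM in TG SPARC, against 29.6, 16.8 and 19.8 CPM in TG untreated. All 3 SPARC values lay below all 3 untreated values, as for 14.2% of all genes. The ratios were 0.300, 0.396 and 0.294 (log2 fold change -1.63, SE 0.39, adjusted p = 0.0252 without the block and adjusted p = 0.000452 with it, by edgeR). Ccne1 had 5.30, 3.04 and 2.65 CPM in TG SPARC, against 3.30, 1.36 and 1.52 CPM in TG untreated, and rose with the block (log2 fold change 0.87, SE 0.21, adjusted p = 0.0214 by edgeR). Bub1b had 14.7, 8.67 and 9.61 CPM in TG SPARC, against 10.7, 6.73 and 6.41 CPM in TG untreated, and rose with the block as well (log2 fold change 0.47, SE 0.14, adjusted p = 0.0460 by edgeR). For Ccne1 and Bub1b number 1 lay highest in each treatment and the groups overlapped. Tpx2 had 6.82, 4.31 and 5.44 CPM in TG SPARC, against 7.68, 7.33 and 7.64 CPM in TG untreated, so all SPARC values lay below all untreated ones, but it did not pass (edgeR adjusted p = 0.230 with the block). With the block, E2f1 and Cenpa passed with any of the 6 pairs left out, whereas Ccne1 did not pass without TG pair 2 or 3 (edgeR adjusted p = 0.0951 and 0.0687) or Bub1b without TG pair 1, 2 or 3 or IL4c pair 1 (0.0518 to 0.181). Without the block the E2f1 call was lost on leaving out TG SPARC 1, TG untreated 2 or 3, IL4c SPARC 2 or any IL4c untreated library (edgeR adjusted p up to 0.105), and the Cenpa call on leaving out TG SPARC 2 or 3 or TG untreated 3 (up to 0.0815).

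The replication genes split by number in TG. In pair 1, the pair with the highest B cell markers, 9 of the 10 licensing genes were higher with SPARC (median log2 ratio 0.41). In pairs 2 and 3 only 1 of 10 was (medians -0.32 and -0.32). Over all genes the TG medians were -0.0126, -0.0222 and -0.0127 in pairs 1, 2 and 3, and the share of all genes that split this way was not counted. Mcm6 had 50.7, 26.2 and 25.9 CPM in TG SPARC, against 32.1, 35.7 and 32.9 CPM in TG untreated, and Mcm2 had 21.7, 7.58 and 8.14 CPM in TG SPARC, against 14.5, 11.2 and 11.8 CPM in TG untreated. In Mcm6 and Mcm2 number 1 was higher and numbers 2 and 3 were lower with SPARC than without. Mcm10 was the licensing gene higher in all 3 TG pairs, with ratios of 1.43, 1.06 and 1.38 (edgeR adjusted p = 0.326 with the block). Cdt1 had 15.4, 13.1 and 13.3 CPM in TG SPARC, against 14.8, 30.3 and 28.7 CPM in TG untreated, a ratio near 1 in pair 1 and of 0.433 and 0.463 in pairs 2 and 3. Pcna had 106, 137 and 129 CPM in TG SPARC, against 100.2, 208 and 183 CPM in TG untreated. As for Cdt1, the untreated numbers 2 and 3 lay above the other TG libraries. Neither passed over all 3 pairs (edgeR adjusted p = 0.0621 for Cdt1 and 0.0924 for Pcna with the block). Without pair 1 of TG the block fit called 9 of 40 genes, against 27.5% of all genes: Mcm2 (-0.53 on the log2 scale), Mcm4 (-0.30), Mcm6 (-0.37), Cdt1 (-1.14), Pcna (-0.53) and Cenpa (-1.53) were lower, and E2f1 (0.48), Ccne1 (1.00) and Bub1 (0.75) were higher. Fits without TG number 1, here and below, held TG numbers 2 and 3 alone, which differed far less from each other than from number 1. Within the TG pairs the 8 kinase and checkpoint genes had median log2 ratios of -0.15, -0.03 and -0.07, against -0.64, -1.06 and -0.47 in the IL4c pairs. Ube2c had 3.72, 1.06 and 1.62 CPM in TG SPARC, against 4.79, 1.20 and 1.79 CPM in TG untreated, with ratios of 0.777, 0.886 and 0.905 (edgeR adjusted p = 0.573 with the block). Mki67 had ratios of 1.46, 1.25 and 0.971 and did not pass (edgeR adjusted p = 0.116).

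Whether the response to SPARC differed between the injections was tested as an interaction. Without the block 0 of 40 genes passed in edgeR, against 0% of all genes, with the lowest adjusted p at 0.547; none had an unadjusted p under 0.05, and DESeq2, limma-voom and limma on FPKM each called 0. With the block edgeR again called 0 of 40 at the adjusted threshold, against 3.10% of all genes. At an unadjusted p under 0.05 stood 13 of the 40, and the share of all genes at that unadjusted threshold was not counted. DESeq2 with the block called 7 at the adjusted threshold, against 7.13% of all genes in that fit. The genes nearest the threshold with the block were Cdc20, whose log2 fold change was -1.48 in IL4c and -0.34 in TG (edgeR adjusted p of the difference = 0.0510), Tk1 at 1.49 and 0.39 (adjusted p = 0.0549), and Cenpa at -2.50 and -1.61 (adjusted p = 0.0560). Without pair 1 of TG the block fit called 11 of 40, against 17.3% of all genes, with Bub1, Cdc20, Plk1, Ccnb2 and Cenpa as lower and Tk1, E2f1, Mcm5, Mcm6, Pcna and Cdt1 as higher in IL4c relative to TG. No gene was higher with SPARC in every pair of either injection and lower in every pair of the other.

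IL4c and TG cells were compared without SPARC and then with it, and for these comparisons the numbers give no pairs. Without SPARC, 1 of 40 genes passed in edgeR, against 21.0% of all genes (10.8% lower in IL4c), and that gene was Cdt1. It had 12.3, 13.6 and 15.7 CPM in IL4c untreated, against 14.8, 30.3 and 28.7 CPM in TG untreated. Number 1 of TG lay within the IL4c range and numbers 2 and 3 lay above it (log2 fold change -0.83, SE 0.26, adjusted p = 0.0493 by edgeR), and the call was lost on leaving out any library other than TG untreated 1 (adjusted p up to 0.195). Pcna had 95.6, 89.1 and 127 CPM in IL4c untreated, against 100.2, 208 and 183 CPM in TG untreated, with the same libraries of TG on top (edgeR adjusted p = 0.122). Mcm4 had 21.5, 20.97 and 23.4 CPM in IL4c untreated, against 32.2, 24.4 and 26.3 CPM in TG untreated, and Mcm6 had 21.00, 19.9 and 27.5 CPM in IL4c untreated, against 32.1, 35.7 and 32.9 CPM in TG untreated. These helicase genes were the only 2 of the 40 whose groups did not overlap, both lower in IL4c, against 20.7% of all genes without overlap in that direction, and neither passed the test (edgeR adjusted p = 0.334 and 0.215). For Mki67 the values were 59.3, 63.9 and 111 CPM in IL4c untreated, against 77.7, 14.6 and 23.03 CPM in TG untreated, where number 1 of TG lay within the IL4c range and numbers 2 and 3 below it (edgeR adjusted p = 0.383). The median log2 fold change was 0.49 for the 40 genes, 0.76 for the centromere and spindle genes and -0.23 for the licensing genes, against -0.05 over all genes. Without both number 1 libraries of TG, Mki67 passed (2.06 on the log2 scale, edgeR adjusted p = 0.00768), as did Cdt1 (-1.08, adjusted p = 0.00209) and Pcna (-0.90, adjusted p = 0.0123), and the median of the 40 genes moved to 1.04, while 38.8% of all genes passed. Without both number 3 libraries of IL4c that median was -0.54, and 1 of the 40, Rrm1, passed (-0.65, adjusted p = 0.0139), against 16.1% of all genes.

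With SPARC on both sides 0 of 40 genes passed in edgeR, against 21.0% of all genes, with no unadjusted p under 0.05 and 0 calls by DESeq2, limma-voom and limma on FPKM. Tpx2 was the only gene whose groups did not overlap, with 7.73, 9.35 and 18.4 CPM in IL4c SPARC, against 6.82, 4.31 and 5.44 CPM in TG SPARC (edgeR adjusted p = 0.213), against 20.8% of all genes without overlap in that direction. E2f1 had 27.8, 30.3 and 37.97 CPM in IL4c SPARC, against 41.6, 24.6 and 25.6 CPM in TG SPARC, and Cenpa had 3.72, 4.07 and 7.95 CPM in IL4c SPARC, against 8.87, 6.66 and 5.82 CPM in TG SPARC. Each of these genes overlapped between the injections. The median log2 fold change of the 40 genes was 0.14, against -0.03 over all genes, but it depended on 2 pairs of libraries. Without both number 1 libraries of TG it was 0.71 and Mki67 passed (1.81, edgeR adjusted p = 0.0138; 36.1% of all genes passed), whereas without both number 3 libraries of IL4c it was -0.84 and 5 genes passed (2816 of 15674 genes tested in all), Ccna2 (-3.26), Rrm1 (-0.84), Plk1 (-1.94) and Cenpf lower and Tpx2 (0.66) higher.

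The regulators upstream of these genes were read from further lists. For all lists below, 15.1% of all genes were called higher and 12.7% lower in IL4c without the block. In TG these shares were 6.73% and 4.52%. With the block they were 22.8% and 22.4% in IL4c, and 14.3% and 13.1% in TG. Of 9 genes for D cyclins and their kinases, 2 fell and none rose with SPARC in IL4c by edgeR without the block, and with the block 2 rose and 3 fell. Ccnd1 had 0.316, 0.592 and 2.06 CPM in IL4c SPARC, against 4.45, 4.75 and 5.70 CPM in IL4c untreated (log2 fold change -2.32, SE 0.53, adjusted p = 0.0103 by edgeR). Its groups did not overlap, as for 24.8% of all genes in that direction. The other D cyclins were higher with SPARC. Ccnd2 had 10.6, 15.2 and 9.83 CPM in IL4c SPARC, against 3.02, 2.87 and 1.92 CPM in IL4c untreated, and Ccnd3 had 113, 126 and 83.00 CPM in IL4c SPARC, against 56.5, 48.3 and 37.5 CPM in IL4c untreated. Their groups did not overlap either, as for 25.5% of all genes in that direction. Each rose with the block (edgeR adjusted p = 7.49e-05 for Ccnd2 and 9.44e-05 for Ccnd3) but not without it (0.0893 and 0.0510). In TG cells, Ccnd2 had 43.5, 8.76 and 7.17 CPM in TG SPARC, against 22.5, 3.44 and 3.47 CPM in TG untreated. Ccnd3 had 104, 52.2 and 47.6 CPM in TG SPARC, against 52.5, 22.9 and 21.3 CPM in TG untreated. Each was higher with SPARC in all 3 pairs (edgeR adjusted p = 0.00164 and 0.000303 with the block). Ccnd1 did not pass in TG (adjusted p = 0.432 without the block).

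Of 10 CDK inhibitors and pocket proteins, 3 fell with SPARC in IL4c and 2 in TG without the block, and none rose in that fit. Of all genes, 12.7% were called lower in IL4c and 4.52% in TG. Cdkn2c, an inhibitor of the cyclin D kinases, had 8.23, 9.67 and 12.01 CPM in IL4c SPARC, against 17.9, 23.4 and 24.97 CPM in IL4c untreated. It had 5.94, 4.31 and 4.85 CPM in TG SPARC, against 12.3, 7.53 and 9.06 CPM in TG untreated. The groups did not overlap in either injection, as for 24.8% of all genes in IL4c and 14.2% in TG in that direction. Cdkn2c fell in each (log2 fold change -1.15, edgeR adjusted p = 0.00387 in IL4c, and -0.93, adjusted p = 0.0239 in TG). Rb1, the retinoblastoma protein that holds E2F factors inactive, fell as well (-0.59, adjusted p = 0.000230 in IL4c, and -0.33, adjusted p = 0.0120 in TG). Cdkn1a, the p21 inhibitor, had 101, 228 and 214 CPM in TG SPARC, against 70.5, 108 and 91.2 CPM in TG untreated, and rose with the block (edgeR adjusted p = 0.00514) but not without it (0.0761). It had 183, 122 and 94.7 CPM in IL4c SPARC, against 141, 123 and 104 CPM in IL4c untreated, with the groups overlapping (adjusted p = 0.820). Cdkn1b did not pass in IL4c or TG without the block (edgeR adjusted p = 0.278 and 0.768). With the block 4 of the 10 genes fell and 1 rose in IL4c, and 4 fell and 2 rose in TG.

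Of 14 tested genes of growth factor receptors and MYC-family regulators, 4 fell and 1 rose in IL4c and 3 fell in TG without the block. Myc, the growth-promoting transcription factor, had 4.35, 3.01 and 3.16 CPM in IL4c SPARC, against 5.91, 4.84 and 6.12 CPM in IL4c untreated. It had 4.78, 5.31 and 5.38 CPM in TG SPARC, against 10.1, 8.99 and 9.40 CPM in TG untreated. It fell in both injections (log2 fold change -0.68, edgeR adjusted p = 0.0117 in IL4c, and -0.88, adjusted p = 0.00914 in TG). Without SPARC it was lower in IL4c than in TG (-0.75, adjusted p = 0.0109). Maf, a transcription factor that restrains macrophage self-renewal, fell in both injections (-2.29, edgeR adjusted p = 0.000157 in IL4c, and -1.01, adjusted p = 0.0167 in TG). With the block 5 of the 14 genes fell and 4 rose in IL4c, and 3 fell and 3 rose in TG.

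Of 16 genes of the E2F, DREAM and MYB-FOXM1 list, 1 rose and none fell in IL4c without the block, and none passed in TG. The gene was E2f4, the repressive E2F of quiescent cells (0.48, edgeR adjusted p = 0.0223). Foxm1, Mybl2, E2f7 and E2f8 did not pass in either injection in that fit. With the block 2 of the 16 genes rose and 1 fell in IL4c, and 1 rose and 2 fell in TG. Of 50 further genes of mitosis, 1 rose without the block in each injection, and it was Pttg1, the securin that restrains chromatid separation (1.08, edgeR adjusted p = 0.000312 in IL4c, and 0.59, adjusted p = 0.0151 in TG). With the block, 18 of the 50 fell and 4 rose in IL4c, against 22.4% of all genes called lower, while in TG 3 fell and 4 rose. Aspm, a spindle pole protein, the cytokinesis kinesin Kif23 and Cdca3, a trigger of mitotic entry, were among the 18 (-1.95, -1.50 and -1.38 on the log2 scale, with edgeR adjusted p of 0.00293, 0.00269 and 0.00603). Of 36 further genes of origins and DNA polymerases, 1 rose and 1 fell in IL4c and 1 rose in TG without the block. Pola2, a subunit of the primase complex, rose in both (1.12, edgeR adjusted p = 0.000530 in IL4c, and 0.65, adjusted p = 0.0180 in TG). With the block 5 of the 36 rose and 3 fell in IL4c, and 1 rose and 1 fell in TG. Of 20 genes of the p53 list, 4 rose and 3 fell in IL4c and 1 fell in TG without the block. In that fit 15.1% of all genes were called higher and 12.7% lower in IL4c, and 4.52% lower in TG. Trp53 itself and its ligase Mdm2 were among those that rose in IL4c (0.47, edgeR adjusted p = 0.0143, and 0.83, adjusted p = 0.00511). Sesn1 of the same list fell in IL4c (-2.87, edgeR adjusted p = 0.000286) and was the gene that fell in TG (-1.78, adjusted p = 0.00719). With the block 5 of the p53 list rose and 5 fell in IL4c, and 3 rose and 2 fell in TG.

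**Figure D5:**
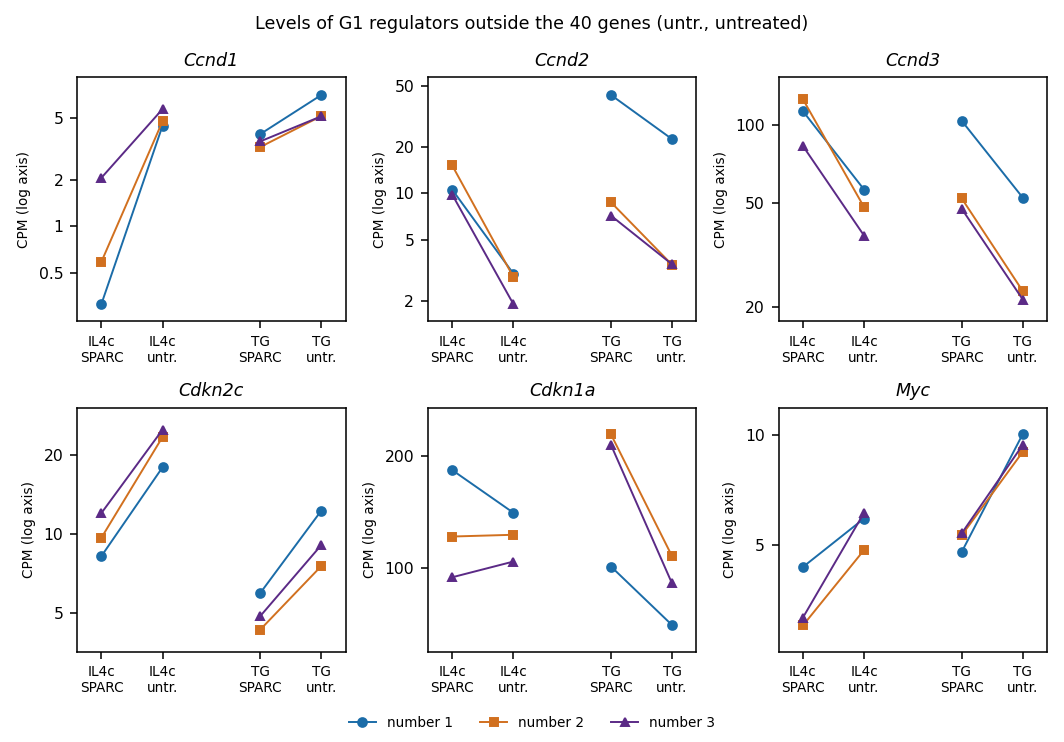
CPM (log axis) of Ccnd1, Ccnd2, Ccnd3, Cdkn2c, Cdkn1a and Myc in each library, with lines joining the SPARC and untreated libraries of the same number. Ccnd2 and Ccnd3 are higher and Ccnd1, Cdkn2c and Myc are lower at the SPARC end of every line in both injections, while Cdkn1a is higher with SPARC in all 3 TG pairs and differs in direction between the IL4c pairs.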

How the data were processed

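RNA of 12 libraries of peritoneal macrophages was sequenced. Expected counts per gene and FPKM were deposited by the authors, made with CASAVA, bcl2fastq 1.8.4, STAR and RSEM per the submitters' processing notes; their genome build is not given in the sources used here. Among those counts 19.2% of the values above 0 were not whole, so they were rounded. The main test was edgeR 4.0.16 (quasi-likelihood, robust, TMM scaling, R 4.3.3) over all 4 groups of 3 libraries, on 15232 of 47729 genes passing a minimum count of 10, with Benjamini-Hochberg adjustment over all of them and a threshold of 0.05. It left 8 residual degrees of freedom, and a second fit with the number within each injection as a block left 4. Libraries of the same injection and number deviated together from their group means over all genes (r = 0.342 to 0.735 in all 6 pairs), against r from -0.659 to 0.507 between different numbers of an injection and from -0.178 to 0.250 for the same number across injections. Subtracting the mean of each group of 3 pushes r between different numbers below 0, and the ranges within an injection overlapped. Over the 40 genes r was 0.483 to 0.837 in the 6 pairs, against -0.843 to 0.777 between different numbers of an injection. The labels give the shared numbers only, so this pairing is read from the data and is not established by them. CPM was computed from the counts with TMM scaling. Ratios given as folds within a pair are plain CPM ratios, and log2 pair ratios, their medians and counts used CPM + 0.5. DESeq2 1.42.0 and limma 3.58.1 on voom values and on log2(FPKM + 1) or log2(FPKM + 0.1) were alternatives. So were other scalings and filters, and left-out libraries. The edgeR fit without the block was tested on simulated data with no effect of the number. The block fit, the test of the difference and the pair ratios were not tested in that way. Totals ran from 31501941 to 42288785 counts, and depth floors cover counting error only. Gene coordinates come from GENCODE vM21 (GRCm38) and promoter windows from RefSeq (GRCm38.p6). All 40 genes are named. Of the genes in other lists, up to 3 with the smallest p per list and comparison were eligible to be named, besides a fixed set of regulators. Aspm, Kif23, Cdca3, Dcn and the genes under the closing section were named after their values were seen. Genes and lists were chosen with earlier results of these data known.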

Additional observations from a re-analysis of the deposited data

Results flagged for a closer look

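Among the listed cell cycle genes outside the 40, 3 had a response to SPARC that differed between the injections in edgeR's test of the difference with the number as a block, where 3.10% of all genes passed. The difference (IL4c minus TG, log2) was 1.08 for the D cyclin Ccnd2 (SE 0.20, adjusted p = 0.0403), whose log2 fold change was 2.19 in IL4c and 1.10 in TG. It was 0.78 for E2f2, an activating E2F factor (SE 0.14, adjusted p = 0.0381), with 0.58 in IL4c and -0.20 in TG. It was -0.83 for Espl1, the separase that opens cohesin (SE 0.13, adjusted p = 0.0312), with -0.33 in IL4c and 0.50 in TG. Without the block none of the 3 differences passed. All 3 genes were highest in number 1 among the TG libraries of each treatment, the libraries with the highest B cell markers, and the part of those cells was not tested.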

How the results depend on the processing

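Numbers of the 40 genes called are given per comparison. The share of all genes called moved between fits as well. For SPARC in IL4c it was 27.8% without the block, 45.2% with it, and 26.6% with it but without IL4c pair 2. For the difference with the block it was 3.10%, and 17.3% without TG pair 1. A change in the numbers below is thus not by itself a result about the 40 genes. For SPARC in IL4c, 2 were called without the replicate block and 20 with it; with the block, RLE scaling gave 20, total-count scaling 20, a filter at 5 CPM 14, DESeq2 17, leaving out TG pairs 1, 2 and 3 gave 22, 17 and 17, and leaving out IL4c pairs 1, 2 and 3 gave 14, 11 and 16. Of the 20 genes, 10 to 20 kept their call in these fits, and all that passed the filter kept their sign. Without the block, leaving out a single library gave 2 to 6 calls (6 without IL4c SPARC 3 and 4 without IL4c untreated 3), and leaving out both IL4c number 3 libraries gave 4. For SPARC in TG, 2 were called; total-count scaling, limma-voom, log2(FPKM + 1), log2(FPKM + 0.1) and a fit of the compared groups alone each gave 1, FPKM with no filter gave 0, and single libraries left out gave 0 to 3. With the block 4 were called (RLE scaling 4, total-count scaling 5, DESeq2 4), 9 without TG pair 1, and 4 without IL4c pair 2 or 3. For IL4c against TG untreated, 1 was called; RLE scaling, no filter, the 5 CPM filter, limma-voom, FPKM with no filter and the compared groups alone gave 0, single libraries left out gave 0 to 2, and leaving out both TG number 1 libraries gave 3. With SPARC, 0 were called, 0 to 2 with single libraries left out, 1 without both TG number 1 libraries and 5 without both IL4c number 3 libraries. For the difference of responses, 0 were called with and without the block, and with the block RLE and total-count scaling gave 1 each, DESeq2 7, no TG pair 1 gave 11 and no IL4c pair 3 gave 3. On FPKM + 0.1, 4 genes in place of 9 were higher in all 3 TG pairs. Mcm6 in TG reversed to -0.37 (adjusted p = 0.0467) with the block and without TG pair 1, and Ccna2 between IL4c and TG with SPARC reversed to -3.26 (adjusted p = 0.0349) without both IL4c number 3 libraries. Over the 40 genes, all comparisons and alternatives, 5702 of 5974 results kept their side of the threshold without a reversal, though 671 of these changed sign with no call on either side, and 36 lost and 234 gained a call. Total-count scaling moved the median of all genes in IL4c against TG untreated to -0.16, against -0.05 in the main scaling. The cause of these changes was not tested, apart from the smaller number of genes under the 5 CPM filter. The block and left-out pair fits in combination, and leaving out both IL4c number 3 libraries, were chosen after seeing the data. Depth limits Cenpf and Ube2c in the IL4c SPARC libraries.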
